A study of Mus musculus with 4 samples.

Results

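The 10 keratins described here are 6 of simple epithelium (KRT7, KRT8, KRT18, KRT19, KRT20 and KRT23) and 4 of stratified squamous epithelium (KRT4, KRT5, KRT6A and KRT14). They were found by symbol among 29871 gene rows of a table of mRNA levels in mouse small-intestinal adenomas, and each had 1 row. Symbols are written in upper case, as in that table. The table held 51 keratin rows in all, so 41 stand outside the group. The genes were selected on their FPKM values in the same comparison, knockout against control. Their differences between genotypes are therefore given as a description, with no test.

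Adenomas came from the small intestine of mice with the genotype APC Min/+, which carry 1 truncating allele of the tumour suppressor Apc. The 2 control libraries had that genotype alone, and the 2 knockout libraries had the genotype PAF KO; APC Min/+, so both groups share the Apc allele. From knowledge of the study, PAF stands for the PCNA-associated factor, the product of Pclaf. The age and number of mice, how PAF was deleted, and whether adenomas were pooled were not stated by any source at hand.

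Keratins are the intermediate filament proteins of epithelial cells. Each filament is built from pairs of a type I (acidic) and a type II (basic) keratin, so a cell makes partners of both types. KRT8 and KRT18 are the founding pair of simple, single-layered epithelium, and in the intestine they are joined by the type I keratins KRT19 and KRT20 and by the type II keratin KRT7. KRT5 and KRT14 pair in the basal layer of stratified epithelia such as skin and forestomach, KRT4 belongs to the upper layers of moist stratified epithelia such as the oesophagus, and KRT6A is known for its induction in wounded or hyperproliferative epidermis. The normal intestinal lining is a simple epithelium.

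The members divide into 5 type I genes (KRT14, KRT18, KRT19, KRT20 and KRT23) and 5 type II genes (KRT4, KRT5, KRT6A, KRT7 and KRT8). In the RefSeq annotation of GRCm38.p6, 4 lie in the type I cluster on chromosome 11 and 6 lie on chromosome 15, where the type I gene KRT18 sits at the end of the type II cluster. No protein-coding gene separates KRT8 from KRT18, KRT20 from KRT23, or KRT6A from KRT5. Promoter windows of RefSeq were found for 7 of the 10 members, and 6 of them began at the outer start of the gene (the window of KRT14 did not). The stretches of 150 bases before the start of these adjacent simple keratin pairs are shown because the members of each pair differed in how they compared between genotypes: KRT8 lay higher and KRT18 did not, while KRT23 lay lower and KRT20 did not. They are given 5′ to 3′ on the strand of the gene, with the motif match in capitals.
KRT8, chr15:102004343-102004492, minus strand: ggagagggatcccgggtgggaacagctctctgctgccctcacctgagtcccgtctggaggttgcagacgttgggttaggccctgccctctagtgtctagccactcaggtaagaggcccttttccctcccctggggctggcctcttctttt
KRT18, chr15:102028066-102028215, plus strand: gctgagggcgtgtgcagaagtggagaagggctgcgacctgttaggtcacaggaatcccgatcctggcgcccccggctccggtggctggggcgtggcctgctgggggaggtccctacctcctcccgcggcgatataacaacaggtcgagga
KRT20, chr11:99438154-99438303, minus strand: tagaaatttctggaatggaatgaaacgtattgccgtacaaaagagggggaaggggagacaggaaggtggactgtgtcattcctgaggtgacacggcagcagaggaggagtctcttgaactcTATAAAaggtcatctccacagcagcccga
KRT23, chr11:99493121-99493270, minus strand: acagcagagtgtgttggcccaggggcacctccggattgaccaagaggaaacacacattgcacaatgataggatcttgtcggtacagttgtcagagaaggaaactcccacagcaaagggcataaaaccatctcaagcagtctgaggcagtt
The 250 bases before the start were searched on both strands for TATAAA (the TATA box), AACCNGTT (grainyhead-like factors), TGANTCA (AP-1) and ATCAAAG (TCF/LEF). Among the 6 windows at an outer start, KRT20 had the only match, TATAAA on the plus strand of the gene from 29 to 24 bases before the start. Over all 32851 RefSeq windows the shares with a match were 12.4% for TATAAA, 1.79% for AACCNGTT, 6.75% for TGANTCA and 3.21% for ATCAAAG.

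Levels are FPKM, fragments per kilobase of transcript scaled to the mapped fragments of a library, so they can be compared between genes. Depth was estimated from the lowest nonzero values as about 13100000 and 17500000 fragments in the control libraries, and 15400000 and 24100000 in the knockout libraries. Both controls were close to each other (median difference 0.09 on log2(FPKM + 1) over the 13716 rows averaging 1 FPKM or more), and the knockout libraries differed more (0.49). Knockout library 2 came from a female by its XIST level of 46.4 FPKM and a level of 0 for the Y-linked gene EIF2S3Y, while EIF2S3Y was present in the other 3 at up to 31.7 FPKM. The row of the PAF gene itself, 2810417H13Rik, read 17.9 and 17.8 FPKM in control adenomas and 4.13 and 11.4 FPKM in knockout adenomas, so its transcript was still listed in both. Nothing in the labels says that libraries of a group came from separate animals. By XIST and EIF2S3Y the knockout libraries did, and for the control libraries it stays unknown.

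The label of the tissue held against its markers. Summed over 6 genes of the intestinal epithelium (EPCAM, CDH1, CDH17, VIL1, CLDN7 and CDX2), levels were 2581 and 2455 FPKM in control adenomas and 2530 and 2876 FPKM in knockout adenomas. The 6 defining genes of stratified squamous epithelium (TRP63, IVL, LOR, DSG3, SPRR3 and CNFN) summed to 8.49 and 10.1 FPKM in control adenomas and 7.99 and 1.34 FPKM in knockout adenomas. TRP63, the master regulator of stratified epithelium, was at most 0.174 FPKM in any library, and CNFN was listed at 0 in 3 of the 4.

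Simple keratins made up nearly all of the keratin transcripts in every adenoma. Their summed level was 6076 and 6065 FPKM in control adenomas and 7211 and 6714 FPKM in knockout adenomas, against 35.9 and 36.8 FPKM in control adenomas and 10.4 and 17.2 FPKM in knockout adenomas for the squamous keratins. The squamous share of the 10 genes' total was 0.587% and 0.603% in control adenomas, and 0.144% and 0.255% in knockout adenomas. The groups did not overlap in either sum: the simple total lay higher and the squamous total lower in both knockout adenomas. Summed FPKM over all rows also differed, from 528147 in control library 1 to 609635 in knockout library 2. As a share of all FPKM, the 10 genes held 1.16% and 1.14% in control adenomas and 1.33% and 1.10% in knockout adenomas. On that scale knockout library 2 lay below both controls. The simple total was 170 and 165 times the squamous total in control adenomas, and 694 and 392 times in knockout adenomas.

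**Figure D1:**
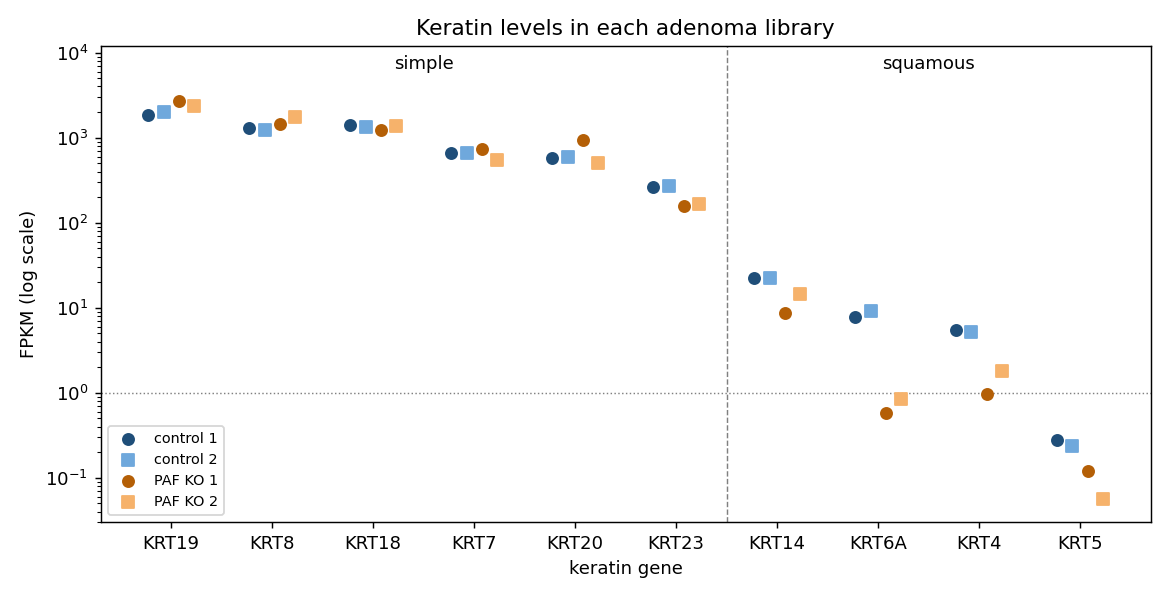
Level of each keratin in FPKM (log axis) in each of the 4 libraries, simple keratins left of the dashed line and squamous keratins right of it. Points are single libraries and the dotted line marks 1 FPKM, the mean level a row needed to be tested. The 6 simple keratins all lie above 150 FPKM, the squamous keratins all lie under 23 FPKM, and each squamous keratin is lower in both knockout libraries than in both controls.

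Of the 10 keratins, 5 were lower in both knockout libraries than in both controls, 2 were higher in both, and 3 overlapped. Among all 13716 tested rows, 30.2% were lower and 21.5% higher by the same rule. The 5 lower genes were all 4 squamous keratins and the simple keratin KRT23, and the 2 higher ones were KRT8 and KRT19. The limma test over all rows called 10 of 13716 (0.0729%) at an adjusted p under 0.05, and 0 of the 9 keratins that entered it. KRT5 did not enter, with a mean of 0.172 FPKM, and KRT6A entered only through the controls, since its mean in knockout adenomas was 0.711 FPKM.

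KRT8 and KRT18 form the basic filament of simple epithelium, and their balance differed between genotypes. KRT8 read 1305 and 1230 FPKM in control adenomas and 1438 and 1767 FPKM in knockout adenomas. Both knockout libraries lay above both controls, by a log2 fold change of 0.33 (SE 0.255, n = 2 per group). KRT18 read 1398 and 1330 FPKM in control adenomas and 1238 and 1358 FPKM in knockout adenomas, with groups that overlap and a log2 fold change of -0.07 (SE 0.232). The ratio of KRT8 to KRT18 was 0.933 and 0.925 in control adenomas and 1.16 and 1.30 in knockout adenomas, so KRT8 was the less abundant partner in both controls and the more abundant one in both knockouts. Of the 50-base stretches of the KRT8 transcript, 26.9% also occur in the transcript of another gene, mostly the pseudogene KRT8-PS, so how reads were shared out could bear on its level, and this was not tested. For KRT18 the share was 0.721%.

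KRT19, a type I keratin of crypt and progenitor cells that lacks most of the usual tail domain, was the most abundant of the 10 in every library. It read 1855 and 1988 FPKM in control adenomas and 2715 and 2372 FPKM in knockout adenomas. Both knockout libraries lay above both controls, with a log2 fold change of 0.40 (SE 0.260), which was 0.11 after quantile scaling of the libraries. KRT19 held 30.4% and 32.6% of the 10 genes' total in control adenomas and 37.6% and 35.2% in knockout adenomas, and ranked 16th to 21st of all rows. KRT7, a type II keratin of ducts and glands, read 667 and 658 FPKM in control adenomas and 731 and 545 FPKM in knockout adenomas. The control values of KRT7 fell between those of the knockouts, and its sign differed between the knockout libraries (0.14 in library 1 and -0.28 in library 2 against the control mean).

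KRT20, a type I keratin of differentiated villus cells, separated the knockout adenomas from each other. It read 585 and 591 FPKM in control adenomas, 933 FPKM in knockout library 1 and 507 FPKM in knockout library 2. Knockout library 1 was thus the highest of the 4 and knockout library 2 the lowest, and the log2 difference from the control mean was 0.67 and -0.21. Beside it, a list of 12 enterocyte genes summed to 8342 and 8920 FPKM in control adenomas, 12610 in knockout library 1 and 1335 in knockout library 2. The list did not go one way in knockout library 1, where 5 of the 12 genes lay above both controls and 6 below, while all 12 lay below both controls in knockout library 2. Most of the higher sum in knockout library 1 came from APOA4 and FABP1, named after their values were seen. APOA4 read 948 and 972 FPKM in control adenomas and 3251 FPKM in knockout library 1, and FABP1 read 49.7 and 50.4 FPKM against 2367 FPKM. The part of enterocyte content in the KRT20 levels was not tested. In bulk tissue, fewer cells of a type and less RNA per cell cannot be told apart.

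KRT23, a type I keratin of the intestine and pancreas known to respond to stress and to histone deacetylase inhibitors, was the simple keratin that stood lower. It read 266 and 269 FPKM in control adenomas and 158 and 164 FPKM in knockout adenomas, 39.9% lower by group means. Both pairs of libraries were tight and the groups lay apart, with a log2 fold change of -0.73 (SE 0.172). Its neighbour KRT20 did not follow it: the ratio of KRT20 to KRT23 was 2.20 in each control and 5.91 and 3.10 in knockout adenomas.

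Over all members, type I transcripts exceeded type II transcripts at a ratio of 2.08 and 2.21 in control adenomas and 2.33 and 1.91 in knockout adenomas. The ratios of the controls lay between those of the knockouts. The 10 genes held between 1.10% and 1.33% of all FPKM in a library.

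**Figure D2:**
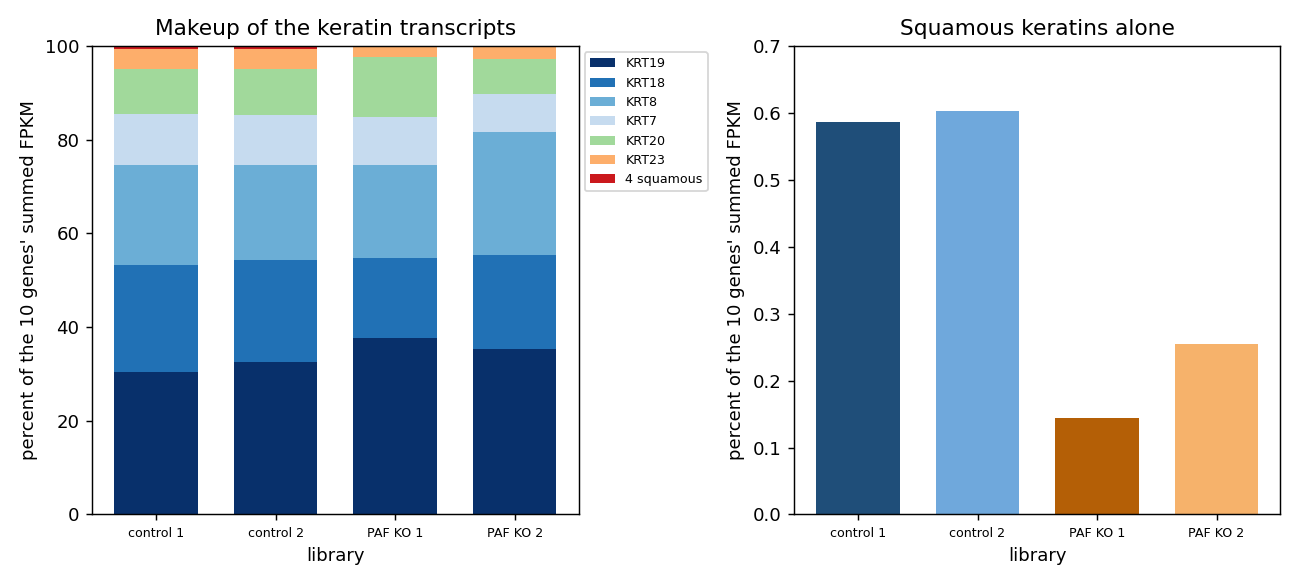
Share of each simple keratin and of the 4 squamous keratins together in the summed FPKM of the 10 genes, in percent, for each library (left), and the squamous share alone on an enlarged axis (right). KRT19 holds 30.4% to 37.6% in every library, KRT23 holds 4.35% and 4.40% in control adenomas against 2.18% and 2.43% in knockout adenomas, and the squamous share is under 0.7% throughout.

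KRT6A showed the largest difference of the 10 genes on the log2(FPKM + 1) scale. It read 7.84 and 9.19 FPKM in control adenomas and 0.578 and 0.845 FPKM in knockout adenomas, which is about 233 and 366 fragments against 20 and 46. The groups lay far apart, with a control mean 12.0 times the knockout mean and a log2 fold change of -2.48 (SE 0.209). The fold changes on this scale understate those of low genes. KRT6A shares 49.5% of its 50-base stretches with other genes, mostly with its near-identical copy KRT6B, so the split of reads between them is uncertain. KRT6B was at most 0.0743 FPKM in any library, far below KRT6A in every one.

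KRT4 read 5.46 and 5.19 FPKM in control adenomas and 0.954 and 1.82 FPKM in knockout adenomas, about 152 and 194 fragments against 31 and 94. Both knockout libraries lay below both controls, and the control mean was 3.83 times the knockout mean (log2 fold change -1.43, SE 0.264). No 50-base stretch of KRT4 occurs in another gene's transcript.

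KRT14 was the most abundant squamous keratin. It read 22.3 and 22.2 FPKM in control adenomas and 8.74 and 14.4 FPKM in knockout adenomas, a log2 fold change of -0.92 (SE 0.281). The groups did not overlap, but the knockout libraries were unequal, at -1.26 and -0.59 against the control mean. It shares 14.4% of its 50-base stretches with other genes, most with KRT16, which was at most 0.405 FPKM.

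KRT5, the type II partner of KRT14 in basal cells, was near the floor of the data. It read 0.277 and 0.235 FPKM in control adenomas and 0.120 and 0.0571 FPKM in knockout adenomas, which is about 8 and 9 fragments against 4 and 3. At this depth no ratio is given for it, and its value on the log2(FPKM + 1) scale still enters the class median and the plots. In the controls KRT14 thus stood at 22.2 FPKM on average and KRT5 at 0.256 FPKM, so the basal-layer partners were present at very unequal levels.

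As groups, the medians of the log2 fold changes were 0.08 over the 6 simple keratins and -1.18 over the 4 squamous keratins, beside 0.003 over all tested rows. Without KRT5, which rests on a few fragments, the squamous median was -1.43. By knockout library they were 0.16 and -0.11 for the simple keratins, -1.47 and -0.88 for the squamous keratins, and -0.11 and 0.09 for all tested rows. The difference between the class medians, simple minus squamous, was 1.25, and it was 1.64 in knockout library 1 and 0.77 in the other. Without knockout library 1 the simple median thus turned negative, as it did after quantile scaling (-0.05), while the squamous median was negative in each of these settings.

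**Figure D3:**
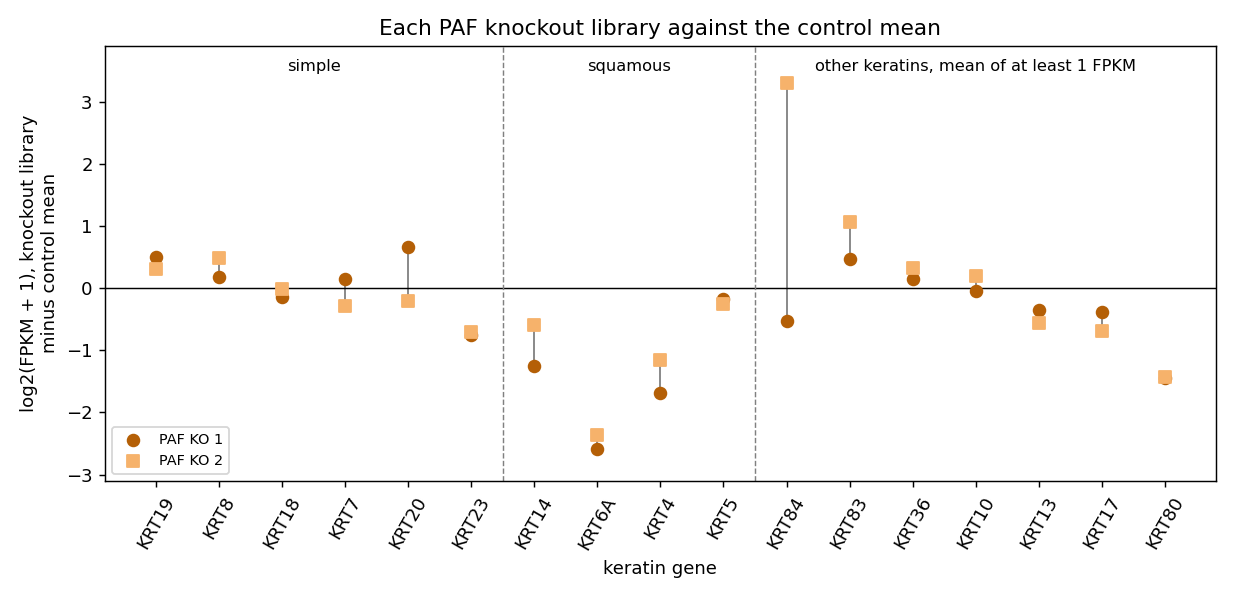
Difference of each knockout library from the mean of the 2 controls on log2(FPKM + 1), for the 10 keratins and for the 7 other keratins with a mean of at least 1 FPKM. Each point is 1 library and the grey line joins the 2 libraries of a gene. All squamous keratins lie below 0 in both libraries, KRT20 and KRT7 lie on both sides of 0, and KRT84 is far above 0 in knockout library 2 alone.

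Most other keratins were absent or very low. Of the 41 other keratin rows, 18 were listed at 0 in all 4 libraries, 16 had a mean above 0 but under 1 FPKM, and 7 were tested. Of these 7, limma called 0, and 1 was lower at an unadjusted p under 0.05, a threshold that 9.76% of all 13716 tested rows passed as lower and 3.44% as higher. That one was KRT80, a type II keratin linked to desmosomes in differentiating epithelia, at 3.97 and 4.93 FPKM in control adenomas and 0.989 and 1.02 FPKM in knockout adenomas (log2 fold change -1.44, SE 0.210; limma adjusted p = 0.238). KRT80 was called without knockout library 1 (limma adjusted p = 0.0103) and, separately, with knockout library 2 left out (adjusted p = 0.0318), fits in which the spread of the single remaining knockout library is taken from the controls. Those fits called 61.2% and 20.7% of all tested rows. KRT13, the type I partner of KRT4 in moist stratified epithelium, read 2.79 and 3.22 FPKM in control adenomas and 2.14 and 1.72 FPKM in knockout adenomas (log2 fold change -0.45, SE 0.209; limma adjusted p = 0.443). KRT17, which accompanies KRT6A in wounded epidermis, read 2.90 and 3.37 FPKM against 2.18 and 1.56 FPKM (log2 fold change -0.53, SE 0.226; limma adjusted p = 0.419). KRT13 and KRT17 thus lay lower in both knockout libraries, by less than KRT4 and KRT6A. Of the 7 tested, 3 were lower in both knockout libraries and 2 higher, beside 30.2% and 21.5% of all tested rows. KRT16, with a mean under 1 FPKM, overlapped at 0.405 and 0.114 FPKM in control adenomas against 0.305 and 0.0283 FPKM. KRT84, a type II keratin of hard epithelium such as nail and tongue, read 1.02 and 0.876 FPKM in control adenomas, 0.351 FPKM in knockout library 1 and 18.1 FPKM in knockout library 2. Its level was thus high in 1 library only. KRT13, KRT17, KRT83 and KRT84 had log2 fold changes of -0.56, -0.69, 1.065 and 3.30 without knockout library 1. Without knockout library 2 they were -0.35, -0.38, 0.46 and -0.53. KRT36, KRT83 and KRT84, with control means of 0.897, 0.680 and 0.947 FPKM, passed the filter on low values only through the knockout libraries. KRT84 passed it through library 2 alone. The fold changes of KRT36, KRT83 and KRT84 are thus no support for a difference between genotypes. KRT83 had a log2 fold change of 0.76 (limma adjusted p = 0.405), KRT36 of 0.23 (adjusted p = 0.645) and KRT10, of the suprabasal epidermis, of 0.07 (adjusted p = 0.890).

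Genes of the stratified squamous programme did not move as one with the squamous keratins. Of 33 listed genes 15 were tested, limma called 0, and 1 higher and 2 lower had an unadjusted p under 0.05, beside 3.44% and 9.76% of all tested rows. The median log2 fold change was -0.08, 0.28 in knockout library 1 and -0.44 in the other. GRHL3, a grainyhead-like factor needed for barrier formation in stratified epithelium, read 12.1 and 11.9 FPKM in control adenomas and 3.09 and 5.13 FPKM in knockout adenomas (log2 fold change -1.38, SE 0.262; limma adjusted p = 0.257). LY6D, a surface protein of keratinocytes and other epithelia, read 758 and 741 FPKM against 284 and 386 FPKM (log2 fold change -1.18, SE 0.250; limma adjusted p = 0.281). SFN, the 14-3-3 protein stratifin, lay the other way at 71.8 and 70.3 FPKM against 129 and 130 FPKM (log2 fold change 0.85, SE 0.158; limma adjusted p = 0.257). With knockout library 1 left out, the log2 fold changes of GRHL3, LY6D and SFN were -1.09, -0.96 and 0.86. With knockout library 2 left out they were -1.67, -1.395 and 0.85. IVL (involucrin) and SPRR3, proteins of the cornified envelope, were lowest in knockout library 2: IVL read 4.14 and 4.24 FPKM in control adenomas and 3.57 and 0.403 FPKM in knockout adenomas, and SPRR3 read 2.55 and 3.64 FPKM against 1.85 FPKM and a listed 0. Their log2 fold changes without knockout library 1 were -1.89 and -2.02, where SPRR3 was compared with a single listed 0. Without knockout library 2 they were -0.18 and -0.51. SPRR3 passed the filter only through the controls, with a knockout mean of 0.926 FPKM. The summed defining squamous markers were likewise lowest in knockout library 2, as was KRT5, which was near the floor. KRT4, KRT6A and KRT14 were lowest in knockout library 1, as were GRHL3 and LY6D of the listed squamous genes. The part of squamous cell content in the levels of the squamous keratins was not tested.

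Genes that anchor keratin filaments to desmosomes and hemidesmosomes showed a median log2 difference of -0.17 over 18 tested of 22 listed, with -0.17 and -0.06 in the knockout libraries. Limma called 0, and 0 had an unadjusted p under 0.05. DSC2, the desmocollin of simple epithelia, read 58.7 and 54.8 FPKM in control adenomas and 72.5 and 105 FPKM in knockout adenomas (log2 fold change 0.61, SE 0.248; limma adjusted p = 0.406). FAM83H, which helps organise keratin filaments, read 49.7 and 45.9 FPKM against 38.5 and 26.9 FPKM (log2 fold change -0.56; limma adjusted p = 0.421), and the plakophilin PKP1 read 30.5 and 29.7 FPKM against 23.6 and 23.1 FPKM (log2 fold change -0.35; limma adjusted p = 0.415). Without knockout library 1, the log2 fold changes of DSC2, FAM83H and PKP1 were 0.88, -0.81 and -0.37. Without knockout library 2 they were 0.35, -0.30 and -0.34. DSG3, the desmoglein of stratified epithelium, stayed between 0.721 and 0.958 FPKM in all 4 libraries.

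Transcription factors of the intestinal and simple epithelium showed a median log2 difference of -0.09 over 18 tested genes, and limma called 0, with 0 higher and 2 lower at an unadjusted p under 0.05, a share near the 9.76% of all tested rows that were lower. CDX2, which sets intestinal identity, read 54.3 and 49.9 FPKM in control adenomas and 50.3 and 69.0 FPKM in knockout adenomas. Among the factors of smallest p were GATA6, with a log2 fold change of -0.52 (SE 0.169; limma adjusted p = 0.352), and GRHL1 at -0.53 (SE 0.208; adjusted p = 0.400). GATA6, GRHL1 and CDX2 had log2 fold changes of -0.61, -0.58 and 0.40 without knockout library 1. Without knockout library 2 they were -0.43, -0.47 and -0.048.

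Other intermediate filament genes, which include the nuclear lamins, showed a median log2 difference of 0.51 over 9 tested of 11 listed. By knockout library it was 0.14 and 0.69. Limma called 0, and 0 had an unadjusted p under 0.05. With a filter at 5 FPKM the median was 0.07. The muscle filament DES read 24.9 and 26.2 FPKM in control adenomas, 28.2 FPKM in knockout library 1 and 102 FPKM in knockout library 2. The nerve filament PRPH had a log2 fold change of 1.24 (limma adjusted p = 0.388). NES (nestin) had one of 0.56 (adjusted p = 0.465), and the lens filament BFSP1 one of 0.51 (adjusted p = 0.465). DES, PRPH, NES and BFSP1 had log2 fold changes of 1.96, 1.785, 0.84 and 0.69 without knockout library 1. Without knockout library 2 they were 0.14, 0.69, 0.27 and 0.32. PRPH passed the filter only through the knockout libraries, at 0.176 and 0.331 FPKM in control adenomas against 1.02 and 3.31 FPKM. So did SYNM, at 0.703 and 0.722 FPKM in control adenomas against 0.958 and 5.68 FPKM. DES and SYNM are also on the list of 10 smooth muscle markers. The 9 without DES, SYNM among them, summed to 180.5 and 180.9 FPKM in control adenomas. Their sum was 191 FPKM in knockout library 1 and 653 FPKM in knockout library 2, so it too was highest in knockout library 2.

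Other cell types that the adenomas could hold were read beside the keratins. The lining cells of the outer gut wall, the mesothelium, also make KRT7, KRT8, KRT18 and KRT19. Of their defining genes, UPK3B, WT1 and LRRN4 were at most 0.356 FPKM in any library. MSLN read 8.46 and 9.06 FPKM in control adenomas and 6.13 and 5.34 FPKM in knockout adenomas (limma adjusted p = 0.344). The 11 mesothelial genes summed to 77.7 and 75.2 FPKM against 124 and 150 FPKM, most of it from CLDN15 and C3, which gut epithelium and other cells make too. CLDN15 read 47.6 and 44.8 FPKM against 92.6 and 85.4 FPKM (log2 fold change 0.93, SE 0.162; limma adjusted p = 0.248). ALDH1A2, which makes retinoic acid, read 3.98 FPKM in each control and 6.92 and 6.46 FPKM in knockout adenomas (log2 fold change 0.63, SE 0.164; limma adjusted p = 0.314). Leaving out knockout library 1 gave log2 fold changes of -0.62 for MSLN, 0.87 for CLDN15 and 0.58 for ALDH1A2. Leaving out knockout library 2 gave -0.45, 0.99 and 0.67. Goblet cell genes showed a median log2 difference of 0.58 over 9 tested genes, 0.57 and 0.95 in the knockout libraries, and enterocyte genes of -0.99 over 12, with -0.02 and -1.75. Limma called 0 genes in the goblet, enterocyte, mesothelial and smooth muscle lists. At an unadjusted p under 0.05 there were 3 higher goblet genes (MUC2, AGR2 and SPDEF), 3 lower enterocyte genes (SIS, MGAM and ANPEP), 2 higher (CLDN15 and ALDH1A2) and 1 lower (MSLN) mesothelial genes, and 0 smooth muscle genes, beside 3.44% higher and 9.76% lower of all tested rows. The leukocyte markers PTPRC, CD3E, LYZ2 and CD79A summed to 58.7 and 51.5 FPKM in control adenomas, 60.7 FPKM in knockout library 1 and 174 FPKM in knockout library 2. The part of these cell types in the keratin levels was not tested.

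**Figure D4:**
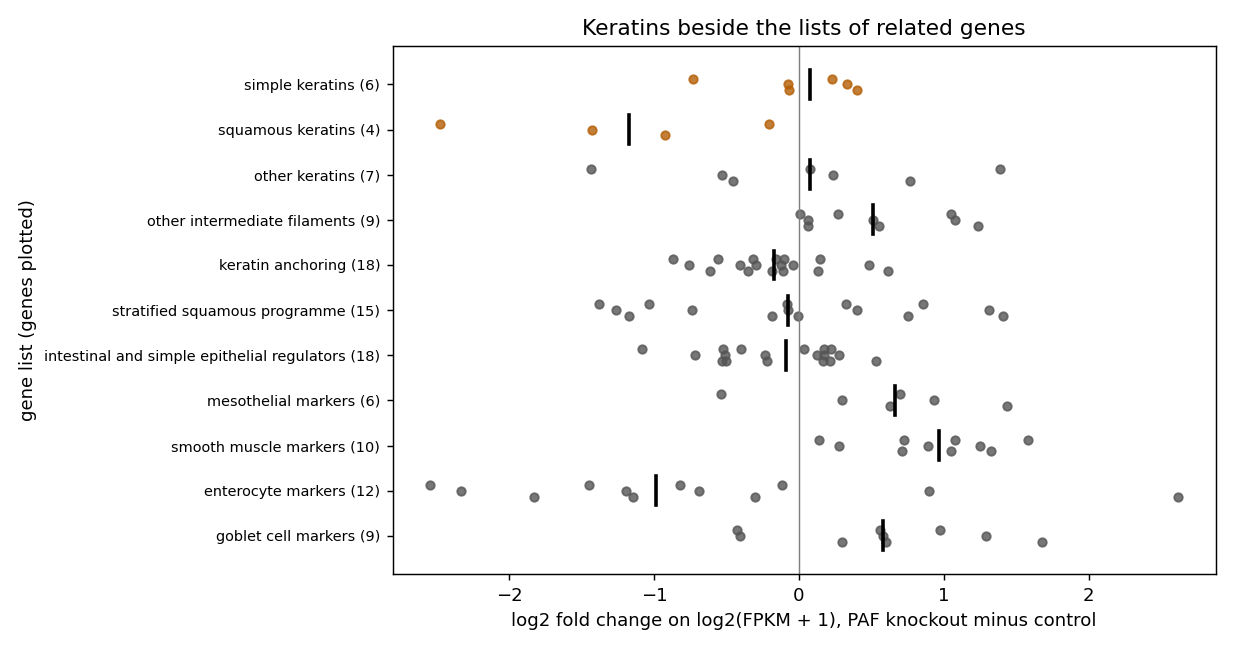
Log2 fold change on log2(FPKM + 1), PAF knockout minus control, of each keratin (orange) and of each tested gene of the related lists (grey), with the number of genes plotted in brackets. Each point is 1 gene and the black bar is the median of the list. The squamous keratins have a median of -1.18, the enterocyte genes one of -0.99, and the stratified squamous programme is spread on both sides of 0 with a median of -0.08.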

How the data were processed

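The authors deposited 1 table of FPKM values with a column for each of the 4 libraries. Per the submitters' processing notes, TopHat2 and Cuffdiff were used with build mm9; no version, setting or annotation is given there. Of 29955 rows, 84 repeated a symbol and the row of higher mean was kept. FPKM is already scaled for depth and length, so no count test was used. Rows whose mean reached 1 FPKM entered a limma fit (version 3.58.1, R 4.3.3) of log2(FPKM + 1) with a trend on mean expression and Benjamini-Hochberg adjustment over 13716 rows. Calls have an adjusted p under 0.05. The fit was tested on simulated data in which a gene had the same spread in all 4 libraries. The real knockout libraries differed more than the controls (median difference 0.49 against 0.09), and the simulation does not cover that. P-values measure only the spread between these samples. That spread may be technical between the controls and includes a sex difference between the knockout libraries.

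Depth was estimated from genes with 1 transcript, where the commonest low product of FPKM and length was taken as 1 fragment, and approximate fragments use the longest coding transcript of GENCODE M21. Repeated 50-base stretches were searched in its transcripts. These values cover counting error only. Promoter sequences are from RefSeq on GRCm38.p6, matched by symbol. Members and lists were chosen with earlier results of these data known. Named genes were the 10 members, the other keratins with a mean of at least 1 FPKM, the 3 genes of smallest p in each list, and defining markers of cell types. A gene that this rule selects is not reported here. Alternatives were other pseudocounts, filters and scalings, a replicate block and leaving out each library. Centring on 6 epithelial markers and a crossed block were added after the data were seen.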

Additional observations from a re-analysis of the deposited data

How the results depend on the processing

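With 2 libraries a group, the count of called rows rests on single libraries. It was 10 with all 4 libraries, between 0 and 8397 when each library was left out in turn (0 for each control library, 8397 for knockout library 1, 2833 for knockout library 2), and 4 with no filter on low values. The median of the squamous keratins was -1.76 with a pseudocount of 0.01, and between -1.47 and -0.88 with each library left out. KRT4, KRT6A, KRT14 and KRT23 kept a negative sign, and KRT8 and KRT19 a positive one, in every alternative that gave them a value. KRT7 turned positive (0.14) without knockout library 2 and KRT20 negative (-0.21) without knockout library 1. With each library left out, KRT10 ranged from -0.055 to 0.20, KRT84 from -0.53 to 3.30, CDX2 from -0.048 to 0.40 and ACTG2 from -0.66 to 1.22. Centring on epithelial markers gave class medians of 0.02 and -1.23. The replicate numbers share only a number in the labels. The replicate differences of the groups correlated at -0.115 across genes, and 13 rows were called with the replicate block and 13 with the pairing crossed. With a filter at 5 FPKM, KRT4, KRT5 and KRT6A drop out, and KRT5 has no value under quantile scaling. At 3 to 9 fragments, KRT5 is limited by depth.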

Other observations

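A few more rows of epithelial genes were chosen after their values were seen, so they are given as values only. SPRR2A1 is on the list of the stratified squamous programme and the others are on no list. GSDMA, a gasdermin of skin and upper gut epithelium, read 11.9 and 11.8 FPKM in control adenomas and 4.07 and 2.08 FPKM in knockout adenomas. It was lower in both, as were 30.2% of all tested rows. LCE3B, a late cornified envelope gene, read 3.47 and 2.90 FPKM in control adenomas, was listed at 0 in knockout library 1 and read 0.129 FPKM in knockout library 2. CLDN4, a tight junction claudin, read 611 and 606 FPKM against 361 and 141 FPKM. The small proline-rich genes went differently. SPRR2A1 read 407 and 455 FPKM in control adenomas, 1856 FPKM in knockout library 1 and 616 FPKM in knockout library 2, and SPRR2F read 10.03 and 10.24 FPKM in control adenomas, 24.8 FPKM in knockout library 1 and was listed at 0 in knockout library 2. SPRR2 genes have near-identical copies, so their values are uncertain.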
